A study of Mus musculus with 8 samples.

Results

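Complement is a cascade of plasma and cell-surface proteins, described here through 9 genes chosen by name in bulk melanomas of mice: C1qa, C1qb, C1qc, C2, C3, C4b, Cfb, Cfp and Cd55, all 9 of them found among the 28918 genes of the expression table. The tumors were grown under the skin of C57BL/6 mice from B16-mhgp100, a derivative of the mouse melanoma line B16, and either over-expressed Colq (3 tumors, 1 library each) or carried the vector alone (3 tumors, 5 libraries, because tumors 1 and 2 were each sequenced as 2 portions). Colq encodes the collagen-like tail of acetylcholinesterase. Mice of both groups received anti-PD1, an antibody against a T cell checkpoint receptor, at 200 µg per dose, starting on day 10 of tumor growth, with 2 doses a week and 4 in all, and tumors were collected 1 day after the last dose. No group without the antibody is analysed here, and the labels do not say whether each tumor came from its own mouse, so p-values measure the spread between these tumors. Values are TPM, a transcript abundance scaled to gene length and library total, so that levels of different genes can be set side by side.

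The cascade can be started in several ways. In the classical pathway C1q, a complex of A, B and C chains made mainly by tissue macrophages, binds antibody or cell debris and activates the proteases C1r and C1s, which cut C4 and C2 to form an enzyme that cleaves C3. In the alternative pathway C3 fragments, factor B (Cfb) and properdin (Cfp) form a second C3-cleaving enzyme, and CD55, also called decay-accelerating factor, takes such enzymes apart on the surface of host cells. The liver supplies most complement protein of plasma, while in tumors macrophages, fibroblasts and the cancer cells themselves can transcribe parts of the set.

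Some properties of the libraries bear on every comparison. Colq itself stood at 4.05, 5.03 and 3.86 TPM in Colq tumors, against 0 to 0.24 TPM in the 5 Vector libraries. The 3 Colq libraries were more alike than portions of a single tumor: the median absolute log2 difference over the 13726 tested genes was 0.11 between Colq tumors in each of the 3 pairs, against 0.14 and 0.22 between the portions of Vector tumors 1 and 2. The labels number the Colq libraries as separate tumors, but this closeness leaves it uncertain that they vary as separate tumors would, and the SD, n and p of the Colq group rest on that. Calls were therefore also made with these libraries averaged to 1 sample. By limma at an adjusted p under 0.05 (Benjamini-Hochberg), Colq tumors had 1556 genes higher (11.3%) and 8181 lower (59.6%), with a median log2 fold change of -0.50. After median-of-ratios size factors, which centre the genes near 0, 3843 (28.0%) were higher and 3505 (25.5%) lower, and with the trend of values on exonic length removed 3067 (23.2%) were higher and 3108 (23.5%) lower of 13211. All fold changes are Colq minus Vector in log2(TPM + 1), are read against that median, and come out too small for genes of low TPM.

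On TPM as deposited, Cd55, Cfp and C3 were higher in Colq tumors, C2 and C4b were lower, and C1qa, C1qb, C1qc and Cfb did not pass. Thus 3 of 9 members were higher where 11.3% of all tested genes were, and 2 of 9 were lower where 59.6% were. The median log2 fold change of the 9 was 0.66, beside -0.50 for all tested genes. With size factors 7 of 9 were higher and 1, C2, was lower, beside 28.0% and 25.5% of all genes. With the length trend removed Cd55, Cfp, C3 and Cfb were higher and C2 was lower, beside 23.2% and 23.5% of all genes. C4b is the member whose direction turned between scales. With the 3 Colq libraries averaged to 1 sample, Cfp and Cd55 were higher (5.74% of all genes were) and C2 was lower (41.6% were). In that fit the spread comes from the 3 Vector tumors alone, and the lone Colq sample is assumed to vary as they do. Counted by tumor without a test, C1qa, C3, Cfp and Cd55 did not overlap and were higher, as were 12.5% of tested genes, and C2 and C4b did not overlap and were lower, as were 62.2%. For C1qa the margin was narrow, 216.9 TPM in Colq tumor 1 against 215 TPM in Vector tumor 2 with portions averaged, and its libraries overlapped. The authors' deposited table had 7 of the 9 higher, beside 20.1% of its 19153 genes with an adjusted p, and 1 lower, beside 20.4%.

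**Figure D1:**
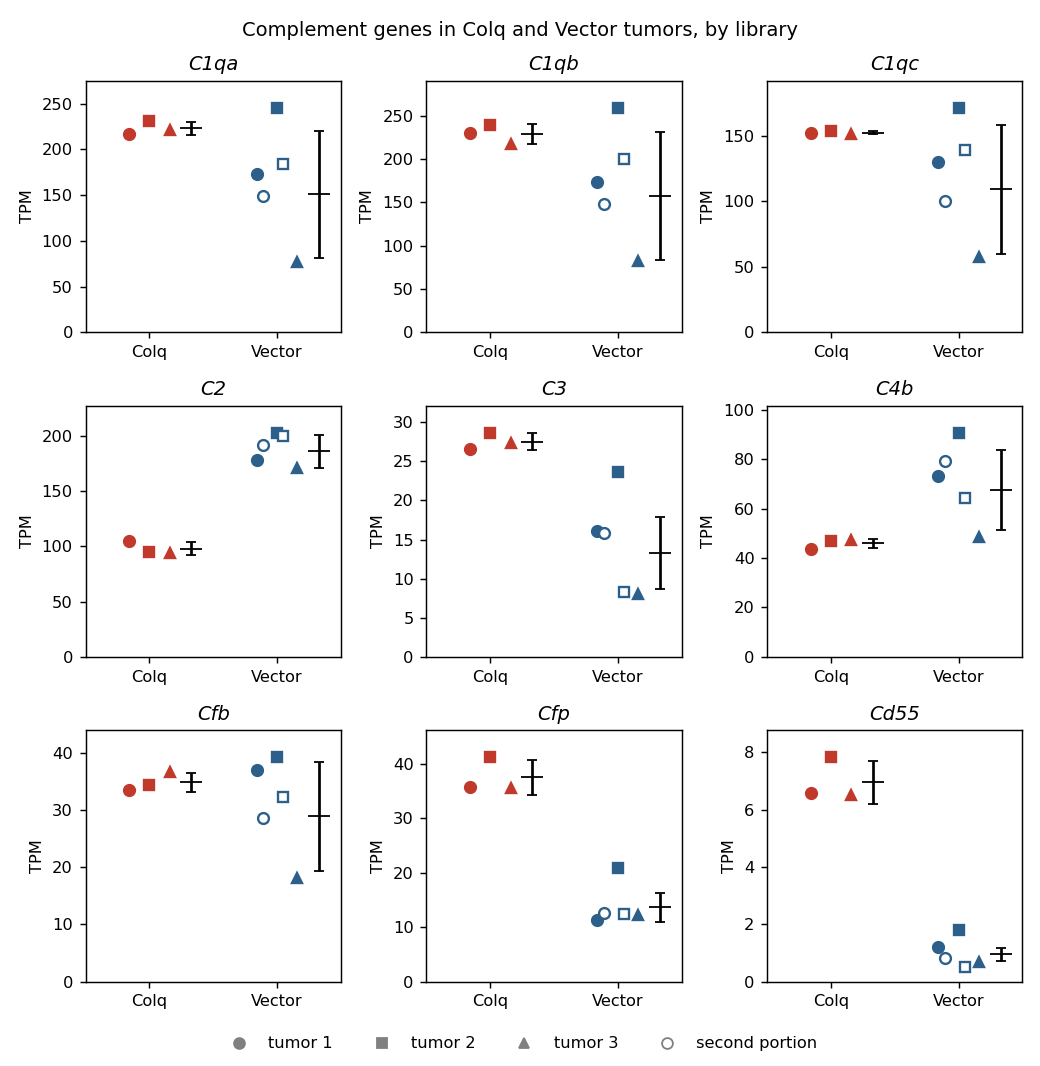
TPM of each of the 9 complement genes in the 3 Colq libraries (red, left) and the 5 Vector libraries (blue, right); symbols mark the tumor, open symbols the second portion of a Vector tumor, and black bars the mean ± SD over 3 tumors with portions averaged. Cd55, Cfp and C3 lie above every Vector library and C2 and C4b below, while the C1q chains and Cfb lie within the Vector range.

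The C1q chains were the most abundant members together with C2, and varied as a unit. C1qa stood at 217, 231 and 221 TPM in Colq tumors, against 173 and 149.5 TPM in the portions of Vector tumor 1, 245 and 185 TPM in those of Vector tumor 2 and 76.5 TPM in Vector tumor 3. The Colq values sat inside the Vector range, above 4 libraries and below 1. C1qb averaged 229 ± 11.2 TPM with Colq and 157 ± 74.0 TPM with Vector, and C1qc averaged 152 ± 0.897 TPM with Colq and 109 ± 49.2 TPM with Vector (SD, n = 3 each). The lowest library for each chain was Vector tumor 3, with 81.7 TPM of C1qb and 57.1 TPM of C1qc, and the highest was the first portion of Vector tumor 2. The log2 fold changes were 0.69 for C1qa (SE 0.33, limma adjusted p = 0.096), 0.66 for C1qb (SE 0.32, adjusted p = 0.10) and 0.60 for C1qc (SE 0.32, adjusted p = 0.12), so none of the chains passed on deposited TPM.

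The C1q result followed the scale and single Vector tumors. After size factors the 3 chains passed, at log2 fold changes of 1.26, 1.23 and 1.17 (limma adjusted p = 0.017, 0.017 and 0.019), whereas with the length trend removed C1qa stood at 0.56 (adjusted p = 0.19) and C1qc at 0.76 (adjusted p = 0.083). As deposited they passed without Vector tumor 2, at 1.00, 0.99 and 0.91 (adjusted p = 0.023, 0.017 and 0.025). Without Vector tumor 3 they stood at 0.27, 0.26 and 0.20 and did not pass (adjusted p = 0.073, 0.14 and 0.17). In the authors' deposited table, which has its own normalization, C1qa was at 1.11 (adjusted p = 0.023), C1qb at 1.09 (adjusted p = 0.024) and C1qc at 1.03 (adjusted p = 0.029).

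In GENCODE M21 (GRCm38) the 3 genes lie next to each other on chromosome 4. C2, C3, C4b and Cfb lie on chromosome 17, Cfp on X and Cd55 on chromosome 1, and all 9 genes are on the minus strand. Ratios between chains need no scaling between libraries. C1qa over C1qb was 0.942 to 1.02 in Colq libraries and 0.923 to 1.01 in Vector libraries, and C1qc over C1qb was 0.640 to 0.698 and 0.661 to 0.748. Over tumors the means were 0.975 ± 0.040 and 0.958 ± 0.039 for the first ratio and 0.666 ± 0.029 and 0.696 ± 0.017 for the second (SD, n = 3 each; exact two-sided permutation p = 0.5 and 0.2, where the smallest possible is 0.1). Among all tested genes outside the 9, those with the profile over the 8 libraries most like that of C1qa were Ctss, the lysosomal protease cathepsin S, Fcer1g, the signalling chain of Fc receptors, and Ifi209, an interferon-inducible gene, by the root mean square difference of centred log2 values (0.070, 0.12 and 0.12). For comparison, C1qb differed from C1qa by 0.050 and C1qc by 0.069. Ctss averaged 227 ± 5.62 TPM with Colq and 162 ± 77.6 TPM with Vector (SD, n = 3 each).

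The region around the annotated start was in the RefSeq-derived promoter table (GRCm38.p6, 250 bases before to 50 after the start) for 5 of the 9 genes. The windows of the neighbouring C1q genes are shown first because these genes varied together, with matches in capitals to GAGGAA, a core of sites for PU.1, a transcription factor of myeloid cells, and to TTNNGNAA, a loose form of the C/EBP motif. Both strands were searched, 28.3% of all 32851 promoter windows hold the first motif and 40.7% the second, and a match is not a measured site.
C1qb, chr4:136886151-136886450, minus strand: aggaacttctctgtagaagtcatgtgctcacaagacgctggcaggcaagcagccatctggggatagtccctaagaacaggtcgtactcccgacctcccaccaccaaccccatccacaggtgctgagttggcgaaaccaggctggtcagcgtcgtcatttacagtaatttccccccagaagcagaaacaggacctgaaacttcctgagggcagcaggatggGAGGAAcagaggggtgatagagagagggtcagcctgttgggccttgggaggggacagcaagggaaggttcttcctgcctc
C1qc, chr4:136892865-136893164, minus strand: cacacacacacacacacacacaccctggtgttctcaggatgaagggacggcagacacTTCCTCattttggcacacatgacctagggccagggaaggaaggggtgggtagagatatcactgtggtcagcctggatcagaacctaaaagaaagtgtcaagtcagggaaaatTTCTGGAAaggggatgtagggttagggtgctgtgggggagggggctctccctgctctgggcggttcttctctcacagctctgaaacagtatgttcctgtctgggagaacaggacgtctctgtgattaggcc
C1qb had 1 match to GAGGAA, and C1qc had 1 to each of the motifs, with no overlap between them. TTCNNNGAA, the letters of an interferon-gamma activated site (8.3% of all windows), and the interferon-stimulated response element (3.4%) were in none of the 5 windows.

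C2 and C4b encode the substrates of C1s that form the classical C3-cleaving enzyme, and both were lower in Colq tumors on deposited TPM. C2 stood at 105, 94.6 and 94.3 TPM in Colq tumors, against 178 and 191 TPM in Vector tumor 1, 203 and 199.7 TPM in Vector tumor 2 and 171 TPM in Vector tumor 3. No library of one group reached the other group's range, as for 57.4% of tested genes in the lower direction. The log2 fold change was -0.91 (SE 0.078, limma adjusted p = 5.0e-05). It was -0.34 after size factors (adjusted p = 0.0090) and -0.43 without the length trend (adjusted p = 0.0039), so C2 passed as lower on each of these scales, and in the authors' deposited table it was at -0.37 (adjusted p = 0.00022).

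C4b stood at 43.7, 47.0 and 47.1 TPM in Colq tumors, against 73.4 and 79.2 TPM in Vector tumor 1, 90.7 and 64.3 TPM in Vector tumor 2 and 48.7 TPM in Vector tumor 3. Vector tumor 3 lay nearest to the Colq values, and no library overlapped. The log2 fold change of -0.51 (SE 0.17, limma adjusted p = 0.028) was close to the median of all genes. It was 0.05 after size factors (adjusted p = 0.83) and 0.14 without the length trend (adjusted p = 0.56), and the authors' deposited table has C4b at -0.0071 (adjusted p = 0.98). As deposited the call was lost without any one tumor other than Vector tumor 3 (adjusted p between 0.065 and 0.10). C4a, a near-identical copy of C4b, held 1.95 to 3.51 TPM in Colq libraries and 1.46 to 4.00 TPM in Vector libraries, and reads of the pair may be shared, so the level of each is uncertain.

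C3, the central component whose cleavage all pathways share, was higher in Colq tumors. It stood at 26.6, 28.7 and 27.4 TPM in Colq tumors, against 16.1 and 15.8 TPM in Vector tumor 1, 23.6 and 8.30 TPM in Vector tumor 2 and 7.98 TPM in Vector tumor 3. The groups did not overlap, as for 9.92% of tested genes in the higher direction, but the portions of Vector tumor 2 differed 2.84-fold. The log2 fold change was 1.11 (SE 0.22, limma adjusted p = 0.0029), 1.60 after size factors (adjusted p = 0.0015) and 1.71 without the length trend (adjusted p = 0.0012). With the first portions only it was 0.87 and did not pass (adjusted p = 0.054), nor did it with the Colq libraries averaged to 1 sample (adjusted p = 0.083). In the authors' deposited table C3 was at 1.56 (adjusted p = 1.7e-05).

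Cfb and Cfp belong to the alternative pathway. Factor B, the protease of its C3-cleaving enzyme, stood at 33.5, 34.4 and 36.8 TPM in Colq tumors, against 37.1 and 28.7 TPM in Vector tumor 1, 39.3 and 32.3 TPM in Vector tumor 2 and 18.1 TPM in Vector tumor 3. The ranges overlapped, and the log2 fold change was 0.33 (SE 0.23, limma adjusted p = 0.24). It passed as higher after size factors (0.88, adjusted p = 0.018) and without the length trend (0.67, adjusted p = 0.047), and it was at 0.82 in the authors' deposited table (adjusted p = 0.00025).

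Properdin, which stabilizes that enzyme and is made largely by myeloid cells, rose. Cfp stood at 35.7, 41.2 and 35.6 TPM in Colq tumors, against 11.2 and 12.6 TPM in Vector tumor 1, 20.9 and 12.3 TPM in Vector tumor 2 and 12.3 TPM in Vector tumor 3. Every Colq library was above every Vector library, with a mean 2.75-fold higher. The log2 fold change was 1.42 (SE 0.12, limma adjusted p = 5.6e-05), 1.96 after size factors (adjusted p = 3.5e-05) and 1.53 without the length trend (adjusted p = 0.00012), and it was at 2.01 in the authors' deposited table (adjusted p = 4.7e-39). Neutrophil markers, from cells that also store properdin, summed to 30.4 to 33.1 TPM over 7 genes in Colq libraries. In Vector libraries they summed to 125 TPM in the first portion of Vector tumor 1 and to 5.83 to 19.6 TPM in the others. Of the 6 tested neutrophil markers 2 were higher and 0 lower as deposited, where 11.3% and 59.6% of all tested genes were. After size factors 4 were higher and 0 lower, where 28.0% and 25.5% were. The part of neutrophils in the Cfp result was not tested.

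The windows of C3 and Cfp are shown because both genes were higher, with the same motifs in capitals.
C3, chr17:57228087-57228386, minus strand: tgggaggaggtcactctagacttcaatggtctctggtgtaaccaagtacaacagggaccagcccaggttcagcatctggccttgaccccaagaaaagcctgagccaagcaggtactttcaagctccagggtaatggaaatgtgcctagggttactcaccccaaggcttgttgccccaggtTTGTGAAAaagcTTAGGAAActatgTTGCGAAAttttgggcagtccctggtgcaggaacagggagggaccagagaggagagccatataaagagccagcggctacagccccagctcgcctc
Cfp, chrX:20931506-20931805, minus strand: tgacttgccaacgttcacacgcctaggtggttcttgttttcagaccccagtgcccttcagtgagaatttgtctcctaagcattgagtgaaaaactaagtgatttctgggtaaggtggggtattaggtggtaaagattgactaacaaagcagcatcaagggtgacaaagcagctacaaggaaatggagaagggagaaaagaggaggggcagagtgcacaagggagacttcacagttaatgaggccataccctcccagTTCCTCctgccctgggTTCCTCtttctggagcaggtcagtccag
C3 had matches to TTNNGNAA at 3 places within 70 bases before the start, the last of them on both strands, and none to GAGGAA. Cfp had 2 matches to GAGGAA, both on the other strand and after the start.

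Cd55 showed the largest change of the 9. It stood at 6.56, 7.82 and 6.49 TPM in Colq tumors, against 1.22 and 0.81 TPM in Vector tumor 1, 1.79 and 0.50 TPM in Vector tumor 2 and 0.69 TPM in Vector tumor 3. It was also the least abundant member in each library, and every Colq library was above every Vector library. The mean was 7.32-fold higher, and the log2 fold change was 2.06 (SE 0.14, limma adjusted p = 2.6e-05), 2.42 after size factors (adjusted p = 2.8e-05) and 2.64 without the length trend (adjusted p = 4.0e-05). With a pseudocount of 0.1 in place of 1 it was 2.85, and in the authors' deposited table it was at 3.37 (adjusted p = 3.9e-32). The portions of Vector tumor 2 differed 3.58-fold, less than the distance of either to any Colq library. An antisense gene model, Gm16083, shares 102 exonic bases with Cd55 and held at most 0.04 TPM in any library. Lyz2, whose profile was nearest to that of Cd55, averaged 869 ± 4.37 TPM with Colq and 188 ± 32.5 TPM with Vector (SD, n = 3 each). The genes with profiles nearest to Cd55 were Lyz2, the myeloid lysozyme, S100a6, a calcium-binding protein, and Cthrc1, a secreted protein of fibroblasts (root mean square difference 0.18, 0.18 and 0.19 over 8 libraries). Those nearest to C3 were the neutrophil chemokine Cxcl5, the chemokine-binding receptor Ackr1 and the lymphatic growth factor Vegfd (0.17, 0.18 and 0.18). Lyz2, S100a6 and Cthrc1 had log2 fold changes of 2.25, 2.34 and 2.28, beside 2.06 for Cd55, so the group difference enters the match. Other pseudocounts were not tried for these rankings. The window of Cd55 is shown as that of the most changed gene, and held none of the 4 motifs.
Cd55, chr1:130462695-130462994, minus strand: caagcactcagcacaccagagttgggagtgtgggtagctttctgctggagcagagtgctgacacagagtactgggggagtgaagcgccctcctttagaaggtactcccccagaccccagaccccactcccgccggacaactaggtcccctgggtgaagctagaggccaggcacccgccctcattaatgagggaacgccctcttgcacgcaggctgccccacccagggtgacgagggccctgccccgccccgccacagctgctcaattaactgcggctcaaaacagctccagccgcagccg

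Of 49 other complement genes listed by role, 42 were in the table and 23 were tested; 4 were higher and 4 lower as deposited, beside 11.3% and 59.6% of all tested genes, with a median log2 fold change of -0.03. After size factors 8 of the 23 were higher and 3 lower, beside 28.0% and 25.5% of all genes. With the length trend removed 9 were higher and 3 lower, beside 23.2% and 23.5%. With the Colq libraries averaged to 1 sample, Fcna and C6 were still higher, while Cd59a was not. C1ra, Clu, Cd93 and C1qbp were still lower in that fit, whose limits and shares of all genes are given above with the members. In the initiation group Fcna, a ficolin that starts the lectin pathway, averaged 17.2 ± 0.658 TPM with Colq and 2.68 ± 1.33 TPM with Vector (SD, n = 3 each), a log2 fold change of 2.52 (SE 0.18, limma adjusted p = 2.6e-05). C1ra, the C1r protease, was at 22.7 ± 0.546 TPM against 40.7 ± 5.09 TPM (log2 fold change -0.81, adjusted p = 0.00025). It was at -0.25 after size factors (limma adjusted p = 0.041), at -0.43 without the length trend (adjusted p = 0.0070) and at -0.30 in the authors' deposited table (adjusted p = 0.015). C1s1, which encodes its partner C1s, was at 24.7 ± 2.64 TPM against 20.1 ± 3.79 TPM and did not pass (0.30, adjusted p = 0.10). Of the 5 tested initiation genes 1 was higher and 1 lower as deposited, where 11.3% and 59.6% of all tested genes were. After size factors 2 were higher and 1 lower, beside 28.0% and 25.5%, and without the length trend 4 and 1, beside 23.2% and 23.5%. C1s1 passed as higher after size factors (0.85, limma adjusted p = 0.0026) and without the length trend (0.69, adjusted p = 0.0069). It was at 0.84 in the authors' deposited table (adjusted p = 5.2e-07). Of these scales C4a passed only without the length trend (0.88, limma adjusted p = 0.023).

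**Figure D2:**
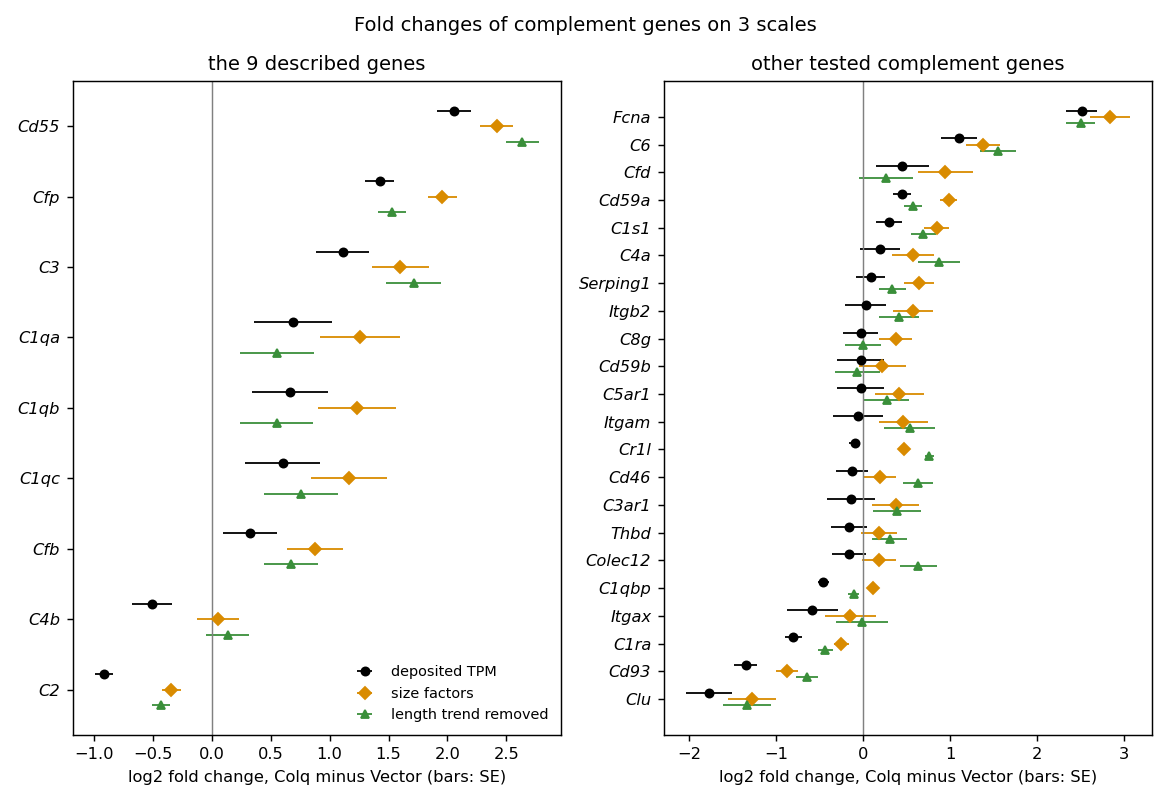
Log2 fold change, Colq minus Vector, with its SE (bars) for the 9 genes (left) and most of the other tested complement genes (right) on deposited TPM (black), after size factors (orange) and with the length trend removed (green). Cd55 and Fcna lie farthest to the right, C2 and Clu farthest to the left, and C4b crosses 0 between scales.

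Among terminal and alternative genes C6, a part of the membrane attack complex, was higher, at 2.40 ± 0.246 TPM with Colq and 0.64 ± 0.364 TPM with Vector (log2 fold change 1.10, limma adjusted p = 0.0020). Cfd, factor D, which cuts factor B and is abundant in fat, averaged 16.4 ± 1.04 TPM with Colq and 13.1 ± 5.83 TPM with Vector and did not pass as deposited (0.45, adjusted p = 0.22) or without the length trend (0.26, adjusted p = 0.52). After size factors it passed as higher (0.95, limma adjusted p = 0.040), and in the authors' deposited table it was at 0.87 (adjusted p = 0.018). C8g did not pass either (-0.03, adjusted p = 0.91). Of 8 tested regulators 2 were higher and 1 lower as deposited, where 11.3% and 59.6% of all tested genes were. After size factors 4 regulators were higher and 1 lower, where 28.0% and 25.5% of all genes were. Without the length trend 4 were likewise higher and 1 lower, where 23.2% and 23.5% were. Cd59a, which blocks the attack complex on host cells, was higher, at 19.3 ± 1.53 TPM with Colq against 14.0 ± 1.62 TPM with Vector (log2 fold change 0.45, limma adjusted p = 0.0069). Clu, clusterin, a soluble inhibitor of the attack complex with other roles, was lower at 3.23 ± 0.484 TPM against 14.2 ± 6.31 TPM (-1.77, adjusted p = 0.00068). Cr1l, the rodent membrane regulator Crry, was at 52.4 ± 1.20 TPM against 56.3 ± 3.44 TPM (-0.10, adjusted p = 0.22). It passed as higher after size factors (0.47, limma adjusted p = 0.00069) and without the length trend (0.76, adjusted p = 8.6e-05), and stood at 0.44 in the authors' deposited table (adjusted p = 2.2e-05). Its TPM was above that of Cd55 in both groups, where Cd55 averaged 6.96 TPM with Colq and 0.95 TPM with Vector.

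Of 7 tested receptor and binding genes 2 were lower as deposited, where 59.6% of all tested genes were, and the others did not pass. After size factors 1 of the 7, Cd93, was lower, where 25.5% of all genes were. Cd93, a surface protein of endothelium once described as a C1q receptor, averaged 2.86 ± 0.309 TPM with Colq and 8.91 ± 1.27 TPM with Vector (log2 fold change -1.35, limma adjusted p = 9.1e-05). Endothelial markers summed to 47.6 to 50.3 TPM over 6 genes in Colq libraries and 87.1 to 141 TPM in Vector libraries, with 4 of the 5 tested lower where 59.6% of all tested genes were, and 4 lower after size factors where 25.5% were, and their part in the result was not tested. C1qbp, a mainly mitochondrial protein that can bind C1q, averaged 143 ± 0.741 TPM with Colq and 197 ± 12.3 TPM with Vector (-0.46, adjusted p = 0.00036), and stood at 0.12 after size factors (adjusted p = 0.19). C3ar1, the receptor of the C3a fragment, was at 8.56 ± 0.364 TPM against 10.2 ± 4.80 TPM and did not pass (-0.14, adjusted p = 0.67). Itgax, a chain of complement receptor 4, did not pass (-0.59, adjusted p = 0.11).

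Because C1q, Cfp and other members are made by macrophages, each level was also expressed relative to the mean log2(TPM + 1) of 12 macrophage markers in the same library. That mean was 3.84 ± 0.045 in Colq tumors, against 3.34 ± 0.42 in Vector tumors, and the tumors of the groups did not overlap (SD, n = 3 each; exact two-sided permutation p = 0.1, the smallest that 3 against 3 allows). As deposited, 4 of the 12 markers were higher and 1 lower by limma, where 11.3% and 59.6% of all tested genes were; after size factors 10 were higher and none lower, where 28.0% and 25.5% of all genes were. Their sums were 219 to 233 TPM in Colq libraries and 114 to 260.0 TPM in Vector libraries. In bulk tissue fewer cells of a type and less RNA per cell cannot be told apart. Relative to these markers C1qa differed by 0.19 log2 units between Colq and Vector tumors, C1qb by 0.16 and C1qc by 0.10, with overlapping tumors (exact p = 0.6, 0.6 and 0.8). These differences rested on single Vector tumors: they were -0.0094, -0.018 and -0.077 without Vector tumor 3, and 0.31, 0.30 and 0.22 without Vector tumor 2. Vector tumor 3 stood lowest for each chain, at 3.38 for C1qa where the other 5 tumors held 3.92 to 4.03.

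Relative to the markers, 5 other members had groups that did not overlap, 3 with Colq tumors above and 2 with Colq tumors below. How many of all tested genes would lie apart on this measure was not counted. On deposited TPM 12.5% of them lay apart by tumor as higher and 62.2% as lower. The difference, Colq minus Vector, was 1.56 log2 units for Cd55, 0.92 for Cfp and 0.61 for C3. C2 stood at 2.78 ± 0.11 in Colq tumors, against 4.20 ± 0.30 in Vector tumors, and C4b at 1.71 ± 0.064, against 2.72 ± 0.15 (SD, n = 3 each). In these 5 genes no tumor of one group reached the range of the other (exact two-sided permutation p = 0.1 each, the smallest possible). For C2 and C4b this was fixed beforehand. Both already lay apart as lower and the marker mean lay apart as higher, so their difference could not overlap. Cfb differed by -0.18 and overlapped (exact p = 0.2). These 9 tests cannot pass 0.05 in a design of this size.

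**Figure D3:**
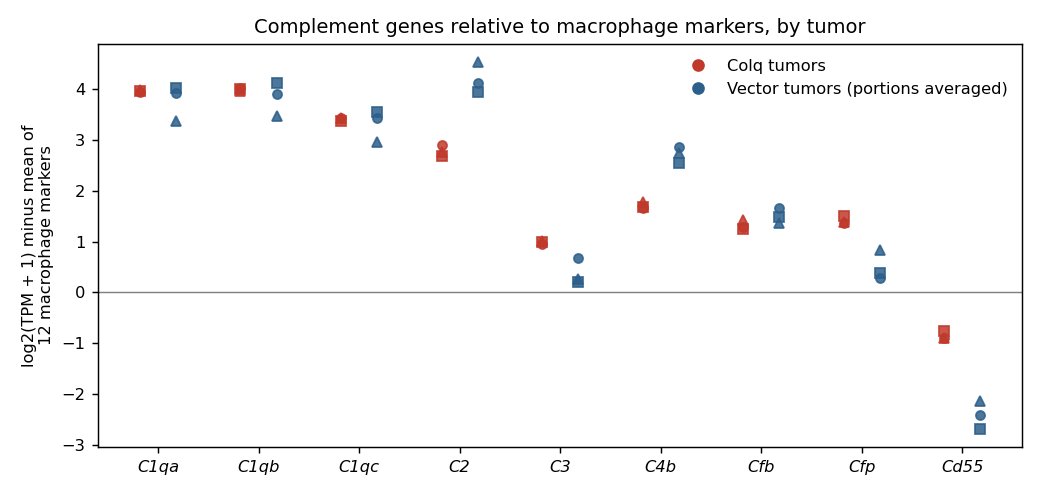
Level of each gene as log2(TPM + 1) minus the mean log2(TPM + 1) of 12 macrophage markers, per tumor, for Colq (red) and Vector (blue) tumors; circles, squares and triangles are tumors 1, 2 and 3. The C1q chains overlap between groups, C2 and C4b are lower in Colq tumors, and C3, Cfp and Cd55 are higher. The marker mean was itself higher in Colq tumors.

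Ratios between members of a pathway were then taken within each library, a choice made after the values were seen, so they are given with no test. C2 over Cfb, genes next to each other on chromosome 17, was 3.13, 2.75 and 2.56 in Colq tumors, against 4.80 to 9.46 in Vector libraries. A read-through gene model that spans both, Gm20547, held at most 0.46 TPM in any library, and the opposite-strand gene Zbtb12, which shares 161 exonic bases with C2, at most 14.7 TPM. C1ra over C1s1 was 0.838 to 1.00 in Colq libraries and 1.63 to 2.55 in Vector libraries. C3 over C4b was 0.581 to 0.610 and 0.129 to 0.260. None of these 3 ratios overlapped between the groups. C3 and C4b each already lay apart in opposite directions, so their ratio could not overlap. C2 and C1ra also lay apart by themselves, as lower genes. By library 9.92% of all tested genes lay apart as higher and 57.4% as lower, and how many other pairs would separate was not counted.

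**Figure D4:**
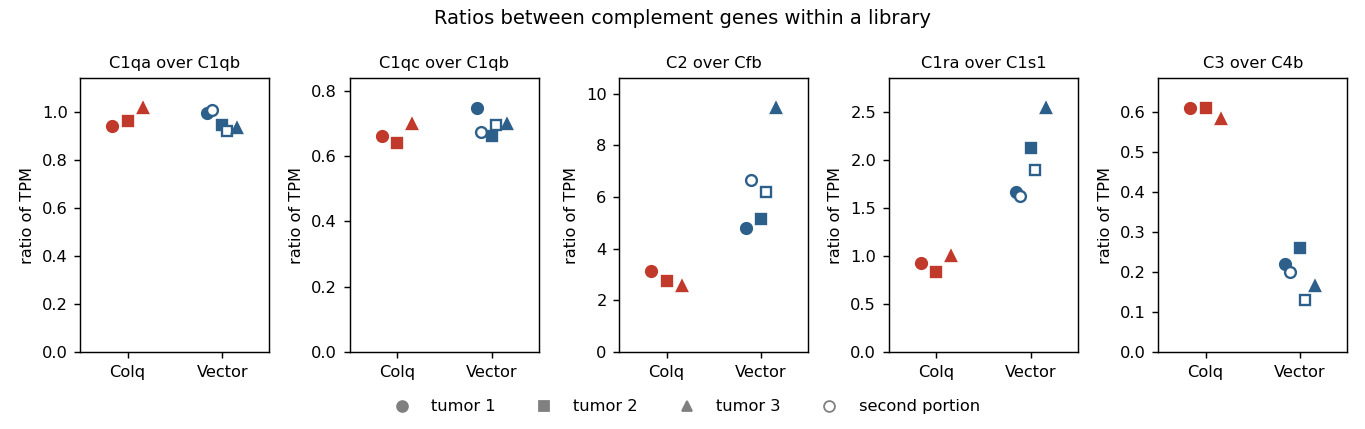
Ratio of the TPM of one gene to another within each library, Colq (red, left) and Vector (blue, right); symbols mark the tumor and open symbols the second portion. The ratios of C1q chains overlap, C2 over Cfb and C1ra over C1s1 are lower in Colq libraries, and C3 over C4b is higher.

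Portions of one Vector tumor showed how far a member varies within a tumor. Between the portions of Vector tumor 1 no member differed by more than 0.37 log2 units (C1qc). Between those of Vector tumor 2 the first portion was higher by 1.40 for C3, 0.90 for Cd55 and 0.72 for Cfp, and by 0.02 for C2. For C3 the gap between portions was larger than the fold change of 1.11, while for Cd55, Cfp and C2 it was smaller. The range over the 3 Vector tumors was widest for the C1q chains, 1.42 to 1.47 log2 units, and narrowest for C2, 0.23.

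Summed markers of muscle, fibroblasts, B and plasma cells and melanoma did not overlap between the groups, while those of keratinocytes did. Skeletal muscle markers summed to 731 to 764 TPM over 8 genes in Colq libraries and 25.6 to 143 TPM in Vector libraries, and fibroblast markers to 410 to 443 TPM and 198 to 395 TPM over 10 genes. The fibroblast genes were split, with 5 of 10 higher and 3 lower as deposited, where 11.3% and 59.6% of all tested genes were. After size factors 6 of these were higher and 2 lower, where 28.0% and 25.5% of all genes were. B and plasma cell markers summed to 55.3 to 58.7 TPM over 6 genes in Colq libraries and 1.85 to 13.2 TPM in Vector libraries, with 2 of the 3 tested higher where 11.3% of all tested genes were. Melanoma markers summed to 10949 to 11272 TPM in Colq libraries and 17603.5 to 22338.5 TPM in Vector libraries over 7 genes. As deposited 6 of the 7 were lower and 0 higher, where 59.6% and 11.3% of all tested genes were. After size factors 4 were lower and 2 higher, where 25.5% and 28.0% were. Keratinocyte markers summed to 38.5 to 43.9 TPM in Colq libraries, against 219 TPM in the first portion of Vector tumor 1 and 0 to 24.0 TPM in the other Vector libraries. With Vector tumor 1 represented by its second portion alone, 3 members were higher and 2 lower, as with both portions. The part of muscle, fibroblast, B cell and tumor cell content in the complement levels was not tested. Hepatocyte markers were near 0: Alb, Apoa1, Ttr, Fgb and Serpina1a together held at most 1.44 TPM in any library, where C3 held at least 7.98 TPM and C4b at least 43.7 TPM. Which cells hold the C3 and C4b transcripts was not tested.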

How the data were processed

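RNA of homogenized tumors was extracted with TRIzol, and the poly-A libraries do not keep strand, per the labels' protocols. The deposited expression values are log2(TPM + 1), as the values themselves show, with TPM from RSEM on build mm39 and DESeq2 named for the comparison, per the submitters' processing notes; which aligner and annotation were used was not given in the sources used here. From the authors' deposited comparison, log2 fold changes and adjusted p-values were used, with direction read from the sign of Colq; the libraries that entered it are not stated, and no test was added. A deposited table of immune receptor sequences was not used. Read depth cannot be had from TPM, and the spread between tumors sets the precision; 19887 to 21602 genes per library were above 0.

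Portions were averaged per tumor on the log2 scale. The 13726 genes whose TPM averaged 1 or more over the 6 tumors, which include all 9 members, were fitted with limma 3.58.1 in R 4.3.3 (eBayes with trend, Benjamini-Hochberg over all of them, called at 0.05). Simulated data of the same 13726 genes had 200 changed genes, independent tumors and the same SD in both groups. Of genes given a log2 change of 1 there 70% were called and 95% of genes given 2, with 7 unchanged genes also called. The real data had far more genes called and Colq libraries closer than portions of 1 tumor, so these rates do not carry over to the real calls. Macrophage-relative levels and C1q ratios used exact two-sided permutation tests over tumors. Exonic lengths and overlaps came from GENCODE M21 (GRCm38), a build other than the authors', with a length for 96.2% of tested genes and a loess span of 0.5; promoter windows came from RefSeq. Python 3.11.15, numpy 2.4.6, pandas 2.3.3 and matplotlib 3.10.9 were used. The members and lists were chosen with earlier results of these data known. Text names all 9 members, up to 4 genes of smallest p per other complement list, and the 3 nearest profiles to C1qa, C3 and Cd55. A gene of these lists is counted but not reported here. Other settings were pseudocounts, filters, scalings, treatments of portions, a replicate block, robust moderation and omission of single tumors; chosen after seeing the data were the Colq libraries as 1 sample and Vector tumor 1 by its second portion.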

Additional observations from a re-analysis of the deposited data

Results flagged for a closer look

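In the first portion of Vector tumor 2, Cfp stood at 20.9 TPM, where the next highest of the 5 Vector libraries held 12.6 TPM and each Colq library at least 35.6 TPM. In the same portion Fcna stood at 7.42 TPM, where the next highest Vector library held 2.56 TPM and the Colq libraries 16.5 to 17.8 TPM. Both values lay apart from the other Vector libraries by more than 0.71 of the whole range (Dixon's critical value for 5), over libraries of which 4 are pairs of portions and so not independent. In all, 24 genes were examined this way, and chance alone marks about 1 in 20.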

How the results depend on the processing

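The number of genes called higher, 1556 as deposited, was 3843 after size factors, 3148 with quantile normalization, 3067 with the length trend removed and 788 with Colq libraries as 1 sample. The number called lower, 8181, was 3505, 4246 and 3108 under the first 3 of these; leaving out single tumors gave 1310 to 1549 higher and 7484 to 8216 lower. Of all genes, 1536 were called higher without Vector replicate 2 and 1170 at a mean TPM of at least 5, and 8058 were called lower with no filter. Members called higher, 3 as deposited, were 7 after size factors and 6 without Vector replicate 2, and leaving out single tumors gave 3 to 6. Members called lower, 2 as deposited, were 1 with no filter, after size factors, with quantile normalization, without the length trend and with Colq libraries as 1 sample; leaving out single tumors gave 1 to 2. Other complement genes called higher, 4 as deposited, were 2 at a mean TPM of at least 5, 8 after size factors, 8 with quantile normalization, 9 with the length trend removed and 2 with Colq libraries as 1 sample. The filter and the 1-sample fit test fewer genes or samples; the cause of the other changes was not tested. C4b turned to 0.052 with size factors and to 0.14 without the length trend. C2 and Cfp kept their direction and passed under all 20 alternatives, with C2 between -0.97 and -0.34, as did Cd55 except at a mean TPM of at least 5, which removes it. C1qa passed with second portions only (0.79, adjusted p = 0.0495). Relative to macrophage markers, Cd55 moved to 2.27 with a pseudocount of 0.1. With a replicate block 1526 genes were higher and 7928 lower, and 3 and 2 members; same-numbered tumors did not deviate together (correlations 0.030, 0.0070 and 0.044), and the block changed no member's call. The depth that limits low genes such as Cd55 is unknown.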
